A study of Nasonia vitripennis with 6 samples.

Results

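The 12 major royal jelly protein genes of *Nasonia vitripennis* are described here in the venom gland (VG) and the ovary. They are all the genes in the deposited table of 36329 gene models whose annotation contains the words royal jelly. None of the 12 was among the 79 venom protein encoding genes listed in the study, so 0 were dropped. Both tissues came from mated females of the Lab II strain that had been given hosts and were 1 to 3 days old. Each tissue had 3 libraries, and each library held tissue pooled from 40 to 50 wasps, so a value is an average over many animals of 1 strain.

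Major royal jelly proteins are secreted glycoproteins best known from the honeybee, where nurse bees make them in the head glands and feed them to larvae and queens. They arose from the yellow family, insect proteins named after the Drosophila gene *yellow*, which acts in cuticle pigmentation. *Nasonia* makes no royal jelly and has its own expansion of these genes, separate from that of the honeybee. The roles of the individual *Nasonia* proteins are not known from the annotation, which names 2 members after major royal jelly protein 1, 7 after major royal jelly protein 2 and 3 after the family only. The names give the nearest annotated relative and not a tested function.

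A value here is a mean normalised count, which is the read count of a gene divided by the size factor of its library and averaged over the 3 libraries of a tissue. It is not divided by gene length, so it serves to compare the tissues for 1 gene and not to rank genes. As the tissues were measured in bulk, fewer cells of a type and less RNA per cell cannot be told apart. A gene is called higher in a tissue when its means differ at least 2-fold and the higher mean is at least 10. The deposited table holds 1 mean per tissue, and the authors' own test columns were not used, so no p-value across genes is given. Where a mean is low enough, the whole reads of each library were worked out from it. The libraries found in this way are called a, b and c within a tissue, from the largest to the smallest size factor, because no label ties them to the replicate numbers. The study describes more ribosomal RNA and a lower mapping rate in a VG replicate. It was not assigned a letter here, as library size alone does not identify a sample, and VG library c was the smallest by size factor (0.287, against 0.525 and 0.450).

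The tissues held what their labels say. Of the 79 venom genes on the study's list, 72 were called higher in the VG, and all 4 ovary markers (*oskar*, *nanos*, *vasa* and the vitellogenin receptor) were called higher in the ovary. Markers of the fat body, the insect storage organ, were also present. Of 17 gene models for vitellogenin, hexamerin and apolipophorin, 8 were called higher in the VG and 4 in the ovary, and their means summed to 9202 for the ovary and 116499 for the VG. Of that VG sum, 100996 came from a single vitellogenin gene, Nasvi2EG010626, and 3 of the 17 gene models had no VG read. Of 19 gene models on the muscle list, chosen by words in the annotation, 2 were called higher in each tissue. Those called higher in the ovary include Nasvi2EG008888, annotated as a non-muscle myosin heavy chain (ovary mean 14588, VG mean 2754). Of 14 gene models on the neuron list, chosen in the same way, 6 were called higher in the VG and 4 in the ovary. Those called higher in the ovary include Nasvi2EG007495, annotated as CUGBP Elav family member 2-like (ovary mean 4537, VG mean 772). A match by words does not show that a gene is specific to neurons. What part other cell types have in the values of the royal jelly protein genes was not tested.

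All 12 royal jelly protein genes had reads in both tissues, and they did not share 1 direction. The 4 members called higher in the VG are Nasvi2EG014218, Nasvi2EG014323, Nasvi2EG014324 and Nasvi2EG014325. The 6 called higher in the ovary are Nasvi2EG010358, Nasvi2EG014326, Nasvi2EG014327, Nasvi2EG014334, Nasvi2EG021394 and Nasvi2EG021396. The other 2, Nasvi2EG021395 and Nasvi2EG032202, were called in neither direction. Of the 19854 genes with a read, 19.0% were called higher in the VG by the same rule, 19.4% in the ovary and 38.4% in either direction. That background includes many gene models with few reads that could not reach a mean of 10.

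**Figure D1:**
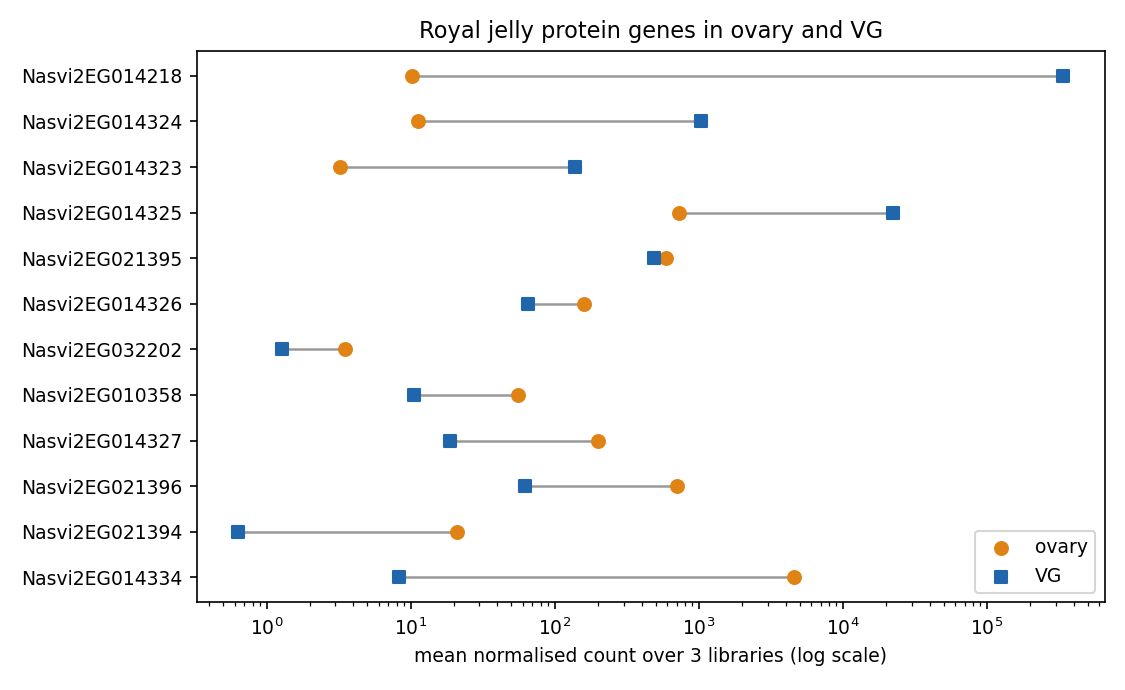
Mean normalised count of each of the 12 royal jelly protein genes in the ovary (circles) and the VG (squares), on a log scale and not divided by gene length. Genes are ordered by the ratio of the tissues, and a grey line joins the 2 means of a gene. The top 4 genes have their VG mean to the right of their ovary mean, from 30.5-fold to 33496-fold, and the bottom gene has an ovary mean of 4569 against a VG mean of 8.25.

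The family's counts were carried by different members in the 2 tissues. Summed over the 12 members, the mean normalised count was 7067 in the ovary and 363509 in the VG, which is 0.0663% of all counts in the ovary and 0.659% in the VG. In the VG, 93.4% of the family's counts belonged to Nasvi2EG014218 and 6.14% to Nasvi2EG014325. Without Nasvi2EG014218, a choice made after its values were seen, the other 11 members took 0.0438% of the VG counts. In the ovary, 64.7% belonged to Nasvi2EG014334, a gene with 0.00227% of the family's VG counts. These shares also depend on gene length.

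The size of the tissue differences was wide. The log2 ratio of VG to ovary means ran from -9.11 to 15.03 over the 12 members, with a median of -1.38 and a median absolute value of 4.23. Over the 14955 genes with reads in both tissues, the median was 0.47 and the median absolute value was 1.66. Below the 5th percentile of these genes, at -4.10, lay 2 members (Nasvi2EG014334 and Nasvi2EG021394). Above the 95th percentile, at 5.32, lay 3 (Nasvi2EG014218, Nasvi2EG014323 and Nasvi2EG014324). Wide differences were not particular to these members. Over the 10 yellow family genes with reads in both tissues, the median was -0.94 and the median absolute value was 5.23.

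**Figure D2:**
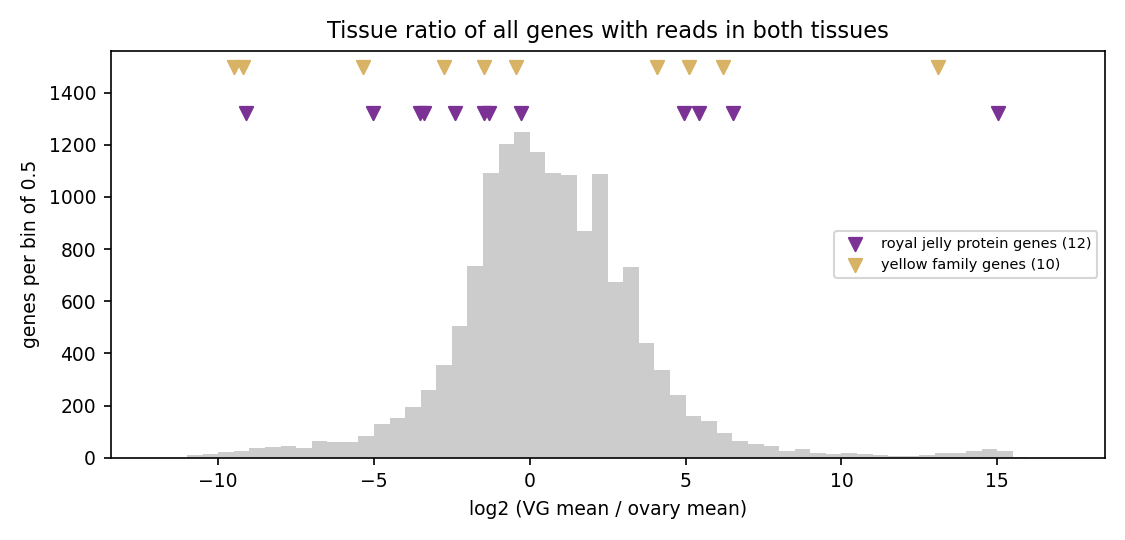
Number of genes per bin of 0.5 of the log2 VG to ovary ratio, for the 14955 genes with reads in both tissues (grey bars). Triangles mark the 12 royal jelly protein genes and the 10 yellow family genes with reads in both tissues. The royal jelly protein genes leave a gap between -0.28 and 4.93, with 8 members below it and 4 above it.

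Nasvi2EG014218, annotated only as a major royal jelly protein, had the highest VG to ovary ratio of the family. Its ovary mean was 10.1 and its VG mean 339340, a 33496-fold difference and a log2 ratio of 15.03. Only 29 of the 14955 genes with reads in both tissues had a higher ratio. It was not on the study's list of venom protein encoding genes, of which 12 of the 76 with reads in both tissues had a higher ratio, and their median log2 ratio was 13.67. Its counts were 0.615% of all VG counts.

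The ovary reads of Nasvi2EG014218 were few but present in each library, with 22, 39 and 14 reads in ovary libraries a, b and c. These are normalised counts of 8.51, 15.8 and 6.09 (mean 10.1 ± 5.05, SD, n = 3). Set against the VG, they amount to 29.9 ovary counts per 1000000 VG counts. The same proportion for the 15 venom protein encoding genes with the highest VG means ran from 26.6 to 177, with a median of 32.3. Where these ovary reads come from was not tested. The VG mean is too high for its reads per library to be worked out, so its spread over the VG libraries is not known here.

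The numbering neighbours of Nasvi2EG014218 carry no royal jelly annotation. Nasvi2EG014217, of unknown function, had means of 25.1 (ovary) and 879 (VG) and was also called higher in the VG, while Nasvi2EG014219 had no read.

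The largest run of consecutive members is Nasvi2EG014323 to Nasvi2EG014327, and it splits by tissue. The first 3 were called higher in the VG, the last 2 in the ovary. The log2 ratios along the run were 5.44, 6.53, 4.93, -1.30 and -3.41. Between Nasvi2EG014325 and Nasvi2EG014326 the ratio changed direction, and the log2 ratios of these neighbours differed by 6.23.

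Nasvi2EG014323, annotated as major royal jelly protein 1, had an ovary mean of 3.21 ± 1.45 against 139 ± 31.4 in the VG (SD, n = 3 libraries each). Its reads were 12, 8 and 4 in the ovary libraries and 92, 54 and 35 in the VG libraries. As normalised counts, the ovary libraries had 4.64, 3.24 and 1.74, and the VG libraries 175, 120 and 122. The lowest VG library was far above the highest ovary library, and the tissue means differed 43.4-fold. The two-sided exact permutation test over the 6 libraries gave p = 0.10 (adjusted p = 0.13 over the 4 members tested), and 0.10 is the smallest p that 3 against 3 libraries allow.

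Nasvi2EG014324, annotated as major royal jelly protein 2, had a mean of 11.3 ± 3.34 in the ovary (SD, n = 3), from 37, 19 and 27 reads, and a mean of 1039 in the VG. Its log2 ratio of 6.53 is the highest of the run. The VG mean allows 3 combinations of reads per library, and they give VG normalised counts of 1485, 329 and 1304, of 1773, 975 and 369, or of 871, 1999 and 247. In each of the 3 combinations, all VG libraries lay above the highest ovary library, at 14.3. The highest VG library was also at least 4.52 times the lowest in each of them, so the VG pools differed among themselves.

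Nasvi2EG014325, also annotated as major royal jelly protein 2, had substantial counts in both tissues. Its ovary mean was 731 and its VG mean 22335, a 30.5-fold difference. It was the member with the next largest share of the family's counts after the leading one in each tissue, with 10.3% of the ovary counts and 6.14% of the VG counts. Per 1000000 VG counts it had 32746 ovary counts, against 29.9 for Nasvi2EG014218. Reads per library could not be worked out for either tissue.

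Nasvi2EG014326, the next gene by number, was higher in the ovary by the 2-fold rule, but only by 2.46-fold. Its VG libraries had 41, 23 and 19 reads, which are normalised counts of 78.2, 51.1 and 66.2 (mean 65.2 ± 13.6, SD, n = 3). The ovary mean of 160 allows 2 combinations, with normalised counts of 216, 145 and 120 or of 5.42, 249 and 226. The tissues do not overlap in the former and overlap in the latter. Whether the difference exceeds the spread between libraries is therefore not settled for this gene.

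Nasvi2EG014327, the last of the run, had an ovary mean of 199 against 18.7 ± 6.94 in the VG (SD, n = 3), a 10.6-fold difference. Its VG libraries had 14, 7 and 4 reads, or normalised counts of 26.7, 15.5 and 13.9. The ovary mean allows normalised counts of 247, 191 and 159 or of 36.4, 295 and 265. The tissues did not overlap in either of the 2 combinations.

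The genes on both sides of this run belong to the yellow family. Nasvi2EG014322, directly before it, was higher in the ovary, with 24, 59 and 46 ovary reads and 3, 1 and 0 VG reads (means 17.7 and 2.65). In each ovary library it had more reads than its neighbour Nasvi2EG014323, and in each VG library it had fewer. Nasvi2EG014328, directly after the run and annotated as yellow e3, had means of 27.3 ± 0.884 in the ovary (SD, n = 3) and 2022 in the VG, and was called higher in the VG with a 74.0-fold difference. Its neighbour Nasvi2EG014327 was called higher in the ovary.

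Nasvi2EG014329 had no read, and the next 4 numbers, Nasvi2EG014330 to Nasvi2EG014333, are again yellow family genes. For 3 of them the ovary was far above the VG. Nasvi2EG014331 had means of 1683 and 2.86 in the ovary and VG, and Nasvi2EG014333 had 1753 and 2.43. Nasvi2EG014332 had an ovary mean of 323 and no VG read, which is at least 92.6-fold higher in the ovary at a floor of 3 VG reads over the 3 libraries. Nasvi2EG014330, with 70 ovary reads and 3 VG reads that all lay in VG library c, was not called, as its higher mean was 9.58.

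Nasvi2EG014334 closes this series of numbers and is annotated as major royal jelly protein 1. Its mean was 4569 in the ovary and 8.25 ± 1.97 in the VG (SD, n = 3). The VG libraries had 4, 3 and 3 reads, or normalised counts of 7.63, 6.66 and 10.5. The ovary mean was 554-fold above the VG mean, with a 95% interval from 301-fold to 1155-fold that covers the counting error of the 10 VG reads only. Its log2 ratio of -9.11 stood beside those of Nasvi2EG014331 and Nasvi2EG014333 (-9.20 and -9.49).

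The low VG level of these 3 genes was set against that of the ovary markers. Nasvi2EG014334 had 1805 VG counts per 1000000 ovary counts, Nasvi2EG014331 had 1697 and Nasvi2EG014333 had 1388. For *oskar* (Nasvi2EG013571), which organises the germ plasm in Drosophila, the proportion was 1521, for *nanos* (Nasvi2EG022188), a germline translational repressor, it was 1895 and for *vasa* (Nasvi2EG015483), a germline RNA helicase, it was 4030. The vitellogenin receptor (Nasvi2EG007358), which takes yolk protein into the oocyte, had 10959, so the 4 markers were not level among themselves. Whether the VG reads come from VG cells was not tested. Nasvi2EG014335, the next number and of unknown function, was also higher in the ovary, with means of 37.3 and 2.43.

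**Figure D3:**
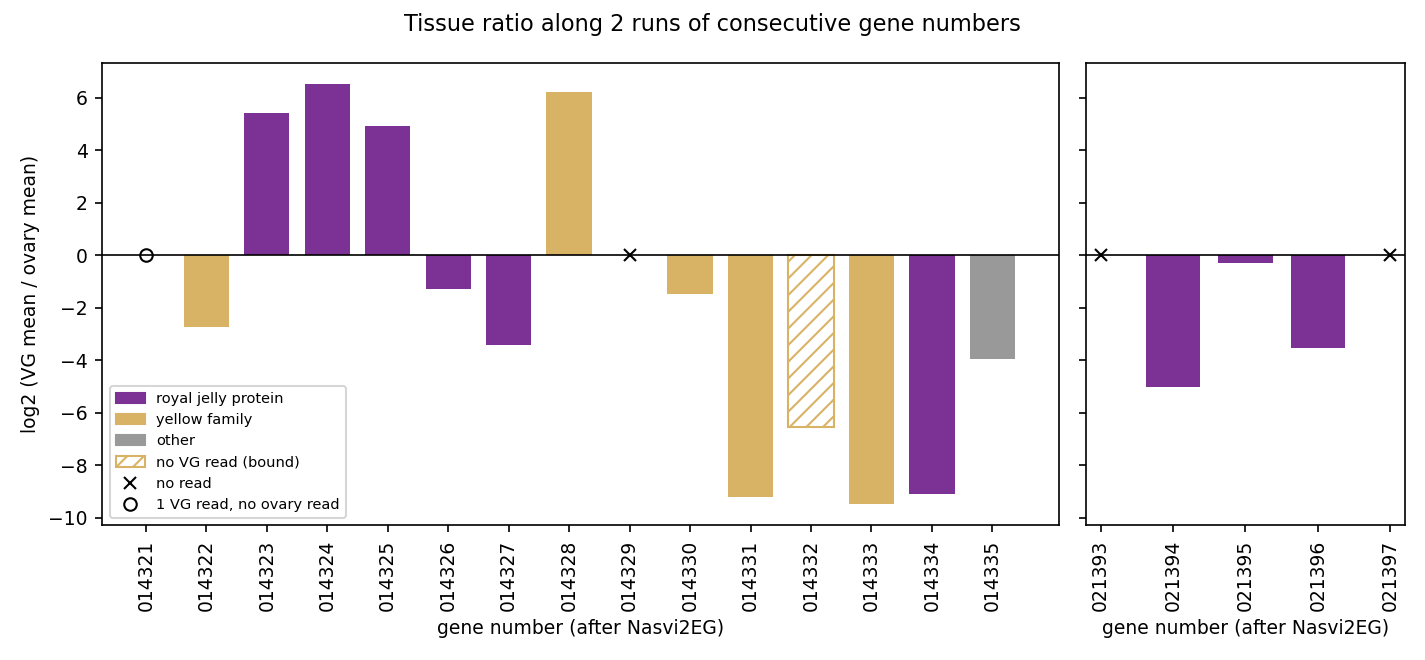
Log2 ratio of VG to ovary means along consecutive gene numbers, with royal jelly protein genes in purple, yellow family genes in ochre and other genes in grey. The hatched bar is a lower bound for a gene with no VG read, crosses mark genes without a read and the open circle a gene with 1 VG read and no ovary read. In the left panel the bars above 0 are Nasvi2EG014323 to Nasvi2EG014325 and Nasvi2EG014328, and in the right panel no bar lies above 0.

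Of the 12 royal jelly protein and yellow family genes between Nasvi2EG014322 and Nasvi2EG014334, 4 were called higher in the VG, 7 were called higher in the ovary and 1 was not called. The deposited table gives no positions, and none of its gene IDs matched the RefSeq annotation used here, so the order is that of the numbers. In RefSeq's gene list for the assembly Nvit_psr_1.1, 7 genes carry a royal jelly protein-like symbol. Of these, 4 (Mrjpl5, Mrjpl4, Mrjpl3 and Mrjpl2) follow one another among 6 protein coding genes between the yellow family genes Y-h and Y-e3. They were not paired with the members described here.

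The other run, Nasvi2EG021394 to Nasvi2EG021396, held 3 genes annotated as major royal jelly protein 2 and had no member called higher in the VG. The genes directly before and after it, Nasvi2EG021393 and Nasvi2EG021397, had no read. The log2 ratios along the run were -5.03, -0.28 and -3.53, so the middle gene stood apart from both neighbours.

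Nasvi2EG021394 had an ovary mean of 20.8 ± 5.55 against 0.635 ± 1.10 in the VG (SD, n = 3 libraries each). Its reads were 70, 41 and 43 in the ovary libraries, and a single read was found in the VG, in library a. The tissues did not overlap (exact permutation test over the 6 libraries, p = 0.10, adjusted p = 0.13). From the pooled reads the ovary was 26.4-fold above the VG, with an exact binomial 95% interval from 4.67-fold to 1050-fold for counting error, so the size of the difference is poorly known.

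Nasvi2EG021395, its neighbour, had an ovary mean of 593 against 490 ± 104 in the VG (SD, n = 3). The VG reads were 305, 230 and 108, or normalised counts of 581, 511 and 376. The tissue means differed 1.21-fold, and without values per ovary library this difference cannot be set against the ovary's own spread. Among the 12 members this was the ratio closest to 1.

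Nasvi2EG021396 had an ovary mean of 710 against 61.6 ± 40.1 in the VG (SD, n = 3), an 11.5-fold difference. The VG libraries had 13, 47 and 16 reads, or normalised counts of 24.8, 104 and 55.8. Library b thus held 47 of the 76 VG reads, and without it the difference was 17.6-fold. Reads per ovary library could not be worked out.

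Nasvi2EG010358 and Nasvi2EG032202 have no member beside them by number. Nasvi2EG010358 had an ovary mean of 55.6 ± 8.50 against 10.6 ± 12.0 in the VG (SD, n = 3 libraries each). The ovary libraries had 167, 118 and 125 reads, or normalised counts of 64.6, 47.8 and 54.4, and the VG libraries had 2, 11 and 1 reads, or 3.81, 24.4 and 3.49. All ovary libraries lay above all VG libraries (exact permutation test, p = 0.10, adjusted p = 0.13), and the means differed 5.26-fold. VG library b held 11 of the 14 VG reads, and without it the difference was 15.2-fold. Its neighbours by number, Nasvi2EG010357 (ovary mean 3.40, VG mean 1.91) and Nasvi2EG010359 (1.36 and 2.64), had few reads and were not called.

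In the same library, b, the normalised count of *vasa* was 82.2, against 15.3 and 20.9 in VG libraries a and c, and that of *nanos* was 8.88, against 0 and 3.49. For *oskar* it was 6.66, against 7.63 and 10.5, and for the vitellogenin receptor 244, against 284 and 216. Library b also stood apart on the neuron and muscle lists, but not on the fat body list. There, among 9 gene models with VG values per library, 4 were highest in b and 4 were lowest in b. Of the 10 gene models on the neuron list with VG values per library, 9 were highest in b and 9 lowest in c. Their summed normalised counts were 974, 1623 and 645 in a, b and c. Of 11 gene models on the muscle list with VG reads and values per library, 8 were lowest in b. Among the 9 royal jelly protein genes with VG values per library, 6 were highest in a, 2 in b and 1 in c. This tally rests in part on few reads. Nasvi2EG021394 and Nasvi2EG032202 had 1 and 2 VG reads, all in library a, and Nasvi2EG014334, highest in c, had 4, 3 and 3. The part of ovary or other RNA in these values was not tested.

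Nasvi2EG032202 was near the limit of detection. It had 11, 10 and 5 reads in the ovary libraries and 2, 0 and 0 in the VG libraries, with means of 3.49 ± 1.15 and 1.27 ± 2.20 (SD, n = 3 libraries each). The libraries overlapped, and no difference was detectable at this depth (exact permutation test, p = 0.20, adjusted p = 0.20). From the pooled reads the ovary to VG ratio was 2.23, with an exact binomial 95% interval from 0.558 to 19.4. Its neighbour before it by number, Nasvi2EG032201, of unknown function, had an ovary mean of 102 and 37285 in the VG, and the number after it, Nasvi2EG032203, had no read.

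**Figure D4:**
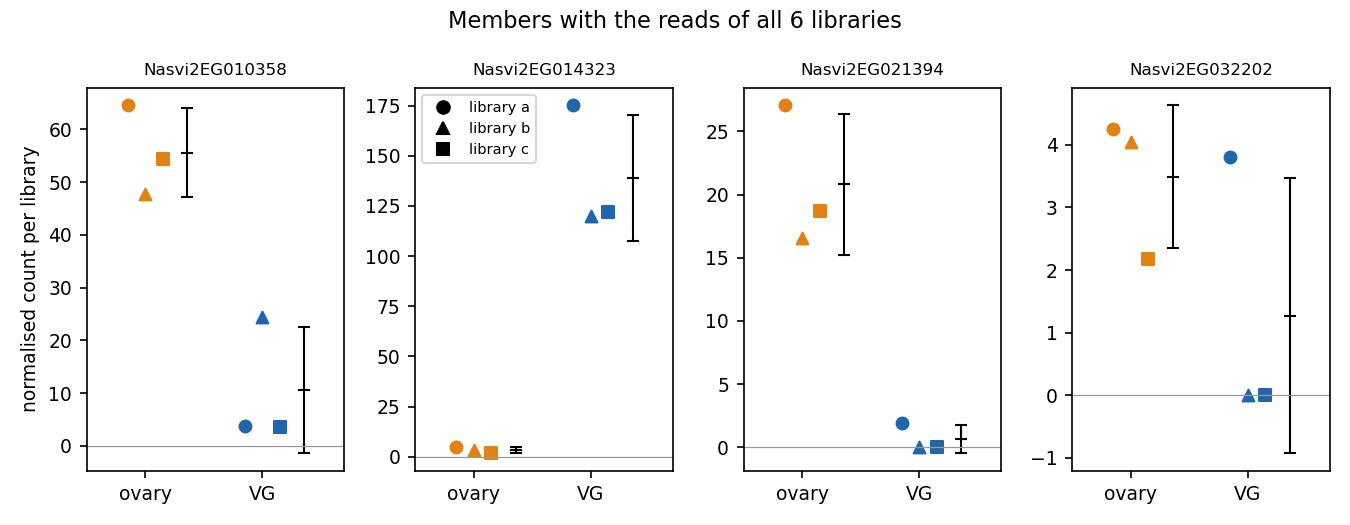
Normalised count in each ovary and VG library for the 4 royal jelly protein genes whose reads could be worked out in all 6 libraries, with the mean and SD (n = 3) beside them in black. Each panel has its own linear axis. The tissues do not overlap for Nasvi2EG010358, Nasvi2EG014323 and Nasvi2EG021394, and they overlap for Nasvi2EG032202.

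In all, the reads of all 6 libraries were found for 4 members, and the tissues did not overlap for 3 of them, 1 with higher counts in the VG and 2 in the ovary. Of the 3769 genes with such reads and a mean of at least 10 in the higher tissue, the VG libraries all lay above the ovary libraries for 54.9% and the ovary libraries all lay above the VG libraries for 23.8%. These are genes of low counts, and a gene reached the minimum through the tissue in which it was high, so the shares are no measure of the family. Nor can they be set against each other. Reads were found for means up to 99.99 in the ovary but up to 655 in the VG, so more genes high in the ovary were left out. By the 2-fold rule over all genes with a read, 19.0% were called higher in the VG and 19.4% in the ovary. Nasvi2EG032202, the member whose libraries overlapped, had a higher mean of 3.49 and is not among the 3769 genes.

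Across the 6 pairs of consecutive members, gene length and any factor shared by a whole tissue cancel from the difference in tissue ratios, while the size factors of single libraries do not. The differences in log2 ratio were 1.09, 1.60, 6.23 and 2.11 along the run from Nasvi2EG014323 to Nasvi2EG014327, and 4.76 and 3.25 along the other run. Their median was 2.68. The 4.76 rests on the single VG read of Nasvi2EG021394, and with a pseudocount of 1 it was 3.46. Over 6598 pairs of consecutive genes that have reads in both tissues and a mean of at least 10 in 1 of them, the median was 1.85 and the upper quartile 3.67. In 1 of the 6 pairs the genes were called in opposite directions, and 14.9% of all such pairs were. No pair had the reads of both genes in all 6 libraries, so the paralogs were not compared within libraries. Reads that match close paralogs equally well can be lost in the counting, and how alike these sequences are was not analysed here.

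The yellow family, from which royal jelly proteins arose, was also split between the tissues. Of 13 genes annotated as yellow, 12 had a read, 4 were called higher in the VG and 5 in the ovary. Further genes called higher in the VG, beside Nasvi2EG014328, were Nasvi2EG008783 (ovary mean 3.00, VG mean 26042), Nasvi2EG016464 (8.45 and 291) and Nasvi2EG033442, annotated as yellow-f (1.50 and 25.5). Beside the genes given above, Nasvi2EG016568 was called higher in the ovary, with means of 369 and 8.99.

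Reads per library showed unlike spread among the yellow genes. Nasvi2EG016464 had VG normalised counts of 446, 107 and 321 and ovary counts of 12.0, 7.69 and 5.65, and Nasvi2EG033442 had VG counts of 26.7, 28.9 and 20.9 and ovary counts of 1.16, 2.02 and 1.30. The tissues did not overlap for either gene. Nasvi2EG008864 had means of 240 and 178 and was not called, and Nasvi2EG016569 had 70 ovary reads and no VG read, at least 2.68-fold higher in the ovary. The search for the word yellow found 5 more gene models, named after regulators of *yellow* that are not themselves of the family, and none of these was called in either direction.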

How the data were processed

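RNA from 3 VG and 3 ovary pools was sequenced as stranded, poly-A enriched libraries. After trimming, the authors mapped reads using Tophat2, took exon counts of official gene models from HTSeq-count and scaled them with DESeq. The build of the genome was not given in the sources used here. The deposited signal values are these normalised counts, averaged by the authors over the 3 libraries of a tissue. The deposited fold change ratio and the p-value columns hold the authors' own comparison and were not used. The tissue of each mean was taken from the headings of the study's additional table of the same genes.

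The members and the gene lists were chosen with earlier results of these data known. Every member is named, as are yellow family genes called in either direction, the genes numbered directly before and after a run of members, and other genes of the numbered series, which were added after their values were seen, as were the remaining yellow genes and the markers given by name.

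A tissue mean is a sum of whole reads times 1 step per library. The steps were read from the most frequent low means and refined by least squares, which gave size factors of 2.58, 2.47 and 2.30 for the ovary and 0.525, 0.450 and 0.287 for the VG. Within the rounding of the table, each of the 9569 ovary means at or under 20 and of the 9411 VG means at or under 100 had such a combination. Reads were accepted where exactly 1 combination matched and fewer than 0.05 were expected by chance. This held in both tissues for 12241 genes, 61.7% of those with a read. On simulated means the reads were recovered for 400 of 400 ovary values and 391 of 391 VG values, built from the same steps. Given the size factors, ovary libraries had about 24519349 to 27549194 reads on genes, and VG libraries about 15826324 to 28934210. These totals take the libraries of a tissue to have equal normalised sums, which was not checked, so they are rough. Intervals and the floor of 3 reads cover counting error only.

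With no value per library for most genes, the tissues were compared by the 2-fold rule, and by exact permutation tests, two-sided, for the 4 members whose reads were found in all libraries, adjusted by the Benjamini-Hochberg method. The sources do not say whether VG and ovary pools came from the same wasps, and the labels do not say that the pools were reared apart. The tests treat the 6 libraries as unpaired and independent pools, which these sources do not settle. A p-value is the share of relabellings of the libraries whose difference in means is at least as large as that found. Alternatives were other scalings, a pseudocount of 1, other minimums, a 4-fold rule, a stricter annotation match and leaving out each library. No gene sequence of a member was used. Values were computed with scipy 1.17.1, pandas 2.3.3 and numpy 2.4.6 under Python 3.11.15 and drawn with matplotlib 3.10.9.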

Additional observations from a re-analysis of the deposited data

How the results depend on the processing

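The number of royal jelly protein genes called higher in the VG was 4 under each alternative tried (other scalings, a pseudocount of 1, minimums of 0 and 100, a 4-fold rule and the stricter annotation match), and the number higher in the ovary was between 4 and 7 against 6. No member reversed its direction. Leaving the listed venom genes out of the totals used for scaling shifted each log2 ratio by -1.28, and Nasvi2EG021395 then stood at -1.56 and was called higher in the ovary. Under that scaling 10 of the 18 gene models with yellow in the annotation were higher in the ovary, against 5. Centring on 8532 genes with both means at or above 10, whose median log2 ratio was -0.27, changed no member's call. Without a minimum Nasvi2EG032202 was called higher in the ovary (-1.46), at a minimum of 100 Nasvi2EG010358 (-2.39) and Nasvi2EG021394 (-5.03) were not called, and under the 4-fold rule Nasvi2EG014326 (-1.30) was not. Leaving out each library gave between 3 and 4 members without overlap, and a log2 ratio of Nasvi2EG010358 between -3.93 and -1.98. No paired analysis was possible because no label or column ties the recovered libraries to replicate numbers. Apart from VG library b for Nasvi2EG021396, leaving out a library was tried only for the 4 members whose reads were found in all 6 libraries. For the other members the spread is known in 1 tissue at most.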
